A study of Mus musculus with 6 samples.

Results

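Lsd1 peaks at distal sites, away from annotated transcription start sites (TSSs), were selected on the presence of a peak in myogenic medium and in LSD1-overexpressing cells in adipogenic medium, and on the absence of a peak in wild-type cells in adipogenic medium. All rows of the 3 deposited Lsd1 peak lists were pooled, intervals that overlapped by at least 1 bp were merged, and a merged region was kept when its centre lay more than 2000 bp from every curated RefSeq TSS of the mm10 assembly. By this rule 4411 of 56729 merged regions were chosen, out of 43367 distal ones. The calls in the 3 lists thus chose the regions, and the heights of their myogenic and LSD1(OE) peaks are given below as descriptions without a test.

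The series is Lsd1 ChIP-seq of C2C12 cells, an established mouse myoblast line that fuses into myotubes when serum is withdrawn. Wild-type cells were taken on day 1 of myogenic differentiation in 2% horse serum (hereafter myogenic) and on day 1 of adipogenic differentiation (hereafter wild-type adipogenic) in 10% FCS. The adipogenic mixture held rosiglitazone at 1 µM, dexamethasone at 5 µM, insulin at 850 nM, isobutylmethylxanthine at 0.5 mM, T3 at 1 nM and indomethacin at 125 nM. A derived line, labelled as overexpression and hereafter LSD1(OE), was taken on day 1 in the same adipogenic mixture. It is a stable line, infected with a lentivirus, selected with G418 and induced with doxycycline to make Flag-tagged LSD1, so that LSD1 level, line, selection and doxycycline cannot be told apart. Each condition had 1 ChIP and 1 input library and no replicate, and every difference below is one between single libraries.

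Lsd1 is a demethylase that removes mono- and dimethyl groups from lysine 4 of histone H3. It works in complexes with CoREST proteins and histone deacetylases, and is brought to DNA by transcription factors such as Rest, the repressor of neuronal genes. Distal peaks of such cofactors often mark enhancers, DNA elements that act on a promoter from afar. In myoblasts many enhancers carry E-boxes, short elements read by Myod1 and other helix-loop-helix factors, and AP-1 sites, read by Fos and Jun dimers.

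The sequences at the myogenic summits, the positions of highest tag pile-up, are shown first for 10 regions with high peaks in both libraries, among the leading ones of the whole set and of the gene lists below, since the sequence was not used to choose them. Each run is 200 bases of the mm10 plus strand. Capitals mark an AP-1 motif (TGANTCA), an E-box CAGCTG or a TEAD motif (GGAATG, or CATTCC on the other strand).

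Fhl2 region, chr1:43259950-43260149: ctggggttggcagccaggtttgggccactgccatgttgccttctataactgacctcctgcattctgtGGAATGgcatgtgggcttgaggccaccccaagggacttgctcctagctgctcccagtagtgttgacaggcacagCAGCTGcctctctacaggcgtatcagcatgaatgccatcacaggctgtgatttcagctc
Iscu region, chr5:113782717-113782916: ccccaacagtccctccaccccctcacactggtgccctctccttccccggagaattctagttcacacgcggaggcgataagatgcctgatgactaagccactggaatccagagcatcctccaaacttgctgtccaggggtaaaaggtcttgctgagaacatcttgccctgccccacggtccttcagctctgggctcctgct
Foxc1 region, chr13:31765846-31766045: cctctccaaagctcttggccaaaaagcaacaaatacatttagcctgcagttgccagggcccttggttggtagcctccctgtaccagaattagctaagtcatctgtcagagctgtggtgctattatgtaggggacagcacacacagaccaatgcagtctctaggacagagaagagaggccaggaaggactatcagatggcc
Mir365-2 region, chr11:79730505-79730704: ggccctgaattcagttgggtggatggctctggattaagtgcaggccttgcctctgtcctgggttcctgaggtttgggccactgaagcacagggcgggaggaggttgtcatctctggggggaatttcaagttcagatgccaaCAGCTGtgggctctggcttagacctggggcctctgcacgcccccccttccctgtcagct
Tln2 region, chr9:67634112-67634311: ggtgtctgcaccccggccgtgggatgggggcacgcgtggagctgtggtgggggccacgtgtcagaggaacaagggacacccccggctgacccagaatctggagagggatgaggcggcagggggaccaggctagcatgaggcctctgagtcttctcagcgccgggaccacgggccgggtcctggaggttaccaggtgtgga
Loxl1 region, chr9:58308390-58308589: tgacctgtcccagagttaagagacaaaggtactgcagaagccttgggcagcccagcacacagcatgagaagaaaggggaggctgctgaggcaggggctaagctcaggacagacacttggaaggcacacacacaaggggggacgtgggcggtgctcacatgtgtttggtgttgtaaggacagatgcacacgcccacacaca
Igfbp2 region, chr1:72797034-72797233: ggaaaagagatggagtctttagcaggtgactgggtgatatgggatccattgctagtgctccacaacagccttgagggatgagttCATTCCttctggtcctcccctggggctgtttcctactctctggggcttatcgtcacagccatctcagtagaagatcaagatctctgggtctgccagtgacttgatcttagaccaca
Ncam1 region, chr9:49816257-49816456: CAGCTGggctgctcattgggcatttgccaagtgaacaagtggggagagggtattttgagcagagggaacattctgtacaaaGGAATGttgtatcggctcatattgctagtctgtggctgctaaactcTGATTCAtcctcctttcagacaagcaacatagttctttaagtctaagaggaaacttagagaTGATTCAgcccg
Tle3 region, chr9:61435657-61435856: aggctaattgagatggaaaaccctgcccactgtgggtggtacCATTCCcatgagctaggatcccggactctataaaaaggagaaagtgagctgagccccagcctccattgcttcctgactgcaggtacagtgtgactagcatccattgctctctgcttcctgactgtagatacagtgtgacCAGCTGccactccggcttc
Wnt11 region, chr7:98815234-98815433: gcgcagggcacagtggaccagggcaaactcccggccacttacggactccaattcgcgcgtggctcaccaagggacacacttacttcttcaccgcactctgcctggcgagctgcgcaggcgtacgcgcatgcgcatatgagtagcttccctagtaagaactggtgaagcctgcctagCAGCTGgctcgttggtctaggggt

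In these windows the Ncam1 region held 2 AP-1 motifs, 1 E-box CAGCTG and 1 TEAD motif. The Fhl2 and Tle3 regions held 1 E-box CAGCTG and 1 TEAD motif each, and the Mir365-2 and Wnt11 regions 1 E-box CAGCTG. The Igfbp2 window held 1 TEAD motif, and the Iscu, Foxc1, Tln2 and Loxl1 windows none of the 3 motifs. A match is a stretch of letters and not a measured binding site.

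Among the distal regions, 16974 had a peak in the myogenic list alone, 10642 in the LSD1(OE) list alone and 6325 in all 3 lists. Of the 29541 distal regions with a myogenic peak, 14.9% met the rule. Where the wild-type adipogenic list had no peak at a distal myogenic region, the LSD1(OE) list had one at 20.6% (95% Wilson interval 20.1 to 21.2%). Seen from the other side, 29.3% (28.6 to 30.0%) of distal LSD1(OE) regions without a wild-type adipogenic peak had a myogenic one. At promoters, the same pattern of calls was found in 2506 regions, so that 63.8% (62.6 to 64.9%) of all regions with it were distal, against 54.2% (53.3 to 55.1%) of regions with a peak in all 3 libraries and 83.3% (82.8 to 83.8%) of those with a myogenic peak alone. These intervals cover counting error only.

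**Figure D1:**
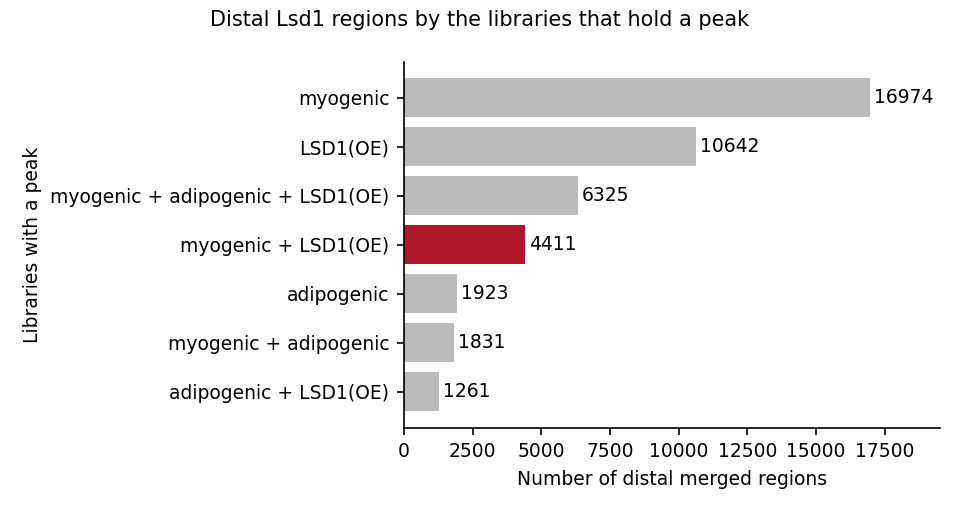
Number of distal merged regions (x axis) for each combination of libraries with a peak (y axis), with the regions described here in red. The 4411 regions with myogenic and LSD1(OE) peaks were the largest group of distal regions shared by exactly 2 libraries.

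Peak heights were moderate. The score of a peak is 10 times −log10 of its p-value, and a score of 50 is the lowest that was called. The myogenic peaks of the regions had a median score of 120 (range 50.02 to 1308) and a median of 54 tags, and the LSD1(OE) peaks a median score of 106 (range 50.02 to 1109) and 59 tags. Within all distal regions of its own library, the median region stood at percentile 59.1 by myogenic and at percentile 53.1 by LSD1(OE) score. Regions with a peak in all 3 libraries were higher, with median scores of 290 and 256, and regions with a myogenic peak alone were lower, with a median score of 69.1. Scores depend on depth and on the input, and the libraries were therefore compared by tag density, the tags per kb of the called peak and per 1000000 filtered ChIP tags. Tags spread evenly over the effective genome would give a density of 0.535.

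The median density of the regions was 1.21 in myogenic medium and 1.11 in LSD1(OE) cells. Per region, the LSD1(OE) density minus the myogenic one had a median of -0.11 on the log2 scale, with quartiles of -0.28 and 0.04, and 3.42% of the regions (151) were at least 1.5-fold lower in LSD1(OE) cells, while 13, or 0.295%, were at least 1.5-fold higher. Over all 18581 merged regions with both peaks, promoters included, the same limits were passed by 8.95% and 0.511%, and the median difference was -0.19. Distal regions with a peak in all 3 libraries had a median of -0.13. A peak had to pass the threshold in both libraries, which sets a floor to both densities (0.928 and 0.899) and narrows the range that a difference can take. Each density was also taken over the length of that library's own peak, so a peak with more tags that was called longer can keep a similar density. The region nearest 5031425F14Rik, for example, had 49 and 274 tags but densities of 1.22 and 1.37. Similar densities therefore do not show equal occupancy. Across the 4411 regions, the log2 densities had a Pearson correlation of 0.37 and a Spearman correlation of 0.22, given as a description, since regions share libraries and their base composition.

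**Figure D2:**
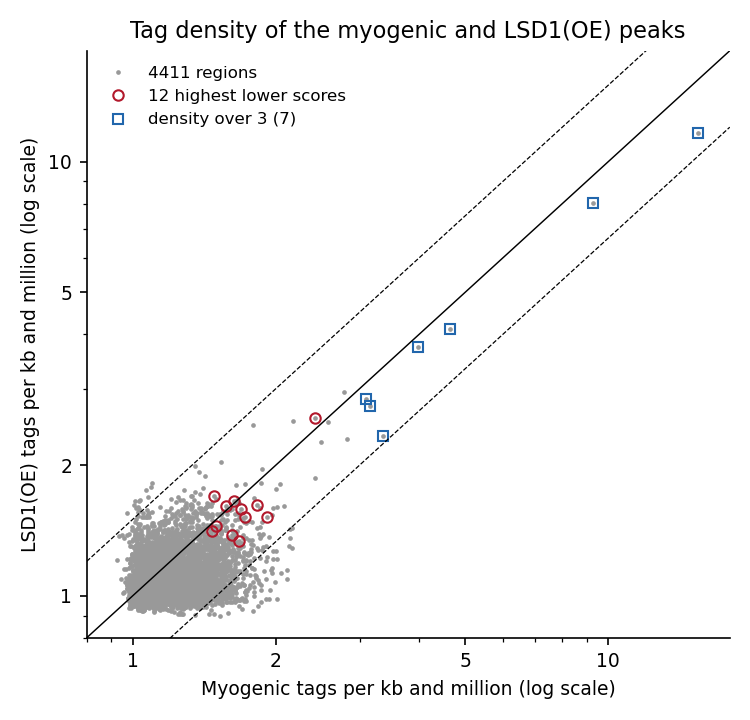
Tag density of the LSD1(OE) peak (y axis) against the myogenic peak (x axis) of the 4411 regions, both in tags per kb and 1000000 filtered tags on log scales, with equality as a solid line and 1.5-fold differences as dashed lines. Most regions sit between 1 and 2 on both axes, the 12 regions with the highest lower score (circles) lie near equality, and 7 regions with a density over 3 (squares) stand apart.

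The wild-type adipogenic library called no peak in any of the regions by definition, and its signal there is not given by a peak list. Its weakest distal peaks, 1760 with a score under 60, had a median density of 0.999. Of the 4411 regions, 98.2% lay above that density in myogenic medium, 84.2% in LSD1(OE) cells and 82.7% in both. The threshold in each library largely sets these shares, which do not show whether the wild-type adipogenic library could have called the sites. Distal regions with a myogenic peak alone also had a first quartile of 1.04 in myogenic medium. The wild-type adipogenic ChIP was the deepest of the 3, with 63915769 filtered tags against 46155625 and 55193310, but had the shortest list, 18893 peaks against 43426 and 33533. MACS, the peak caller, multiplied ChIP tags by 1.28 in that library and by 1.90 in the myogenic and 1.82 in the LSD1(OE) library to reach the size of the input, which raises scores more in the latter pair. With each region's scores divided by these factors, 1680 of the regions, or 38.1%, kept scores of at least 50 in both libraries. The part of this scaling, of pull-down and of the input in the calls was not tested.

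Although the rule asks for 1 bp of overlap, most myogenic and LSD1(OE) peaks overlapped over much of their length. The peaks had median lengths of 940 and 937 bp and the merged regions one of 1219 bp. The shared stretch covered a median of 96.4% of the shorter peak, and 89.8% of the regions shared at least 50% of it. The summits lay a median of 177 bp apart (quartiles 72.0 and 399.5 bp), and 33.5% (32.1 to 34.9%) were within 100 bp. In regions with a peak in all 3 libraries, the median distance was 172 bp and 35.9% (34.7 to 37.1%) were within 100 bp. Of the regions, 4182 were made of 1 peak from each list.

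Wild-type adipogenic peaks were often close by. A gap of at most 1 kb separated 12.1% (11.2 to 13.1%) of the regions from the nearest one, a gap of at most 5 kb 37.4% (36.0 to 38.9%) and a gap of at most 10 kb 52.1% (50.6 to 53.5%), with a median gap of 9107 bp. Distal regions with a myogenic peak alone were farther away, with 7.24% (6.86 to 7.64%), 26.9% (26.2 to 27.5%) and 39.7% (38.9 to 40.4%) within these limits. Regions with an LSD1(OE) peak alone were intermediate, with 9.19% (8.66 to 9.75%) within 1 kb and 43.5% (42.5 to 44.4%) within 10 kb. The intervals of the 3 groups did not overlap at any of the limits quoted.

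**Figure D3:**
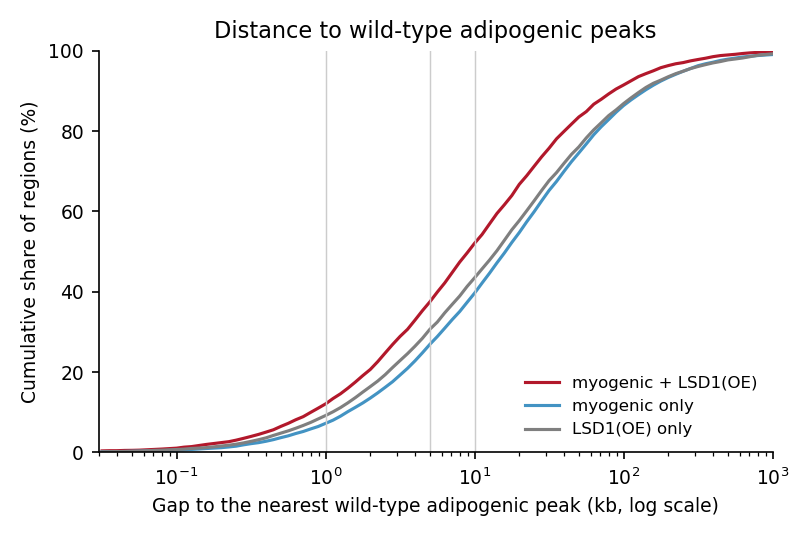
Cumulative share of regions (y axis, %) with a wild-type adipogenic peak within a given gap (x axis, kb, log scale), for the 4411 regions (red), distal regions with a myogenic peak alone (blue) and with an LSD1(OE) peak alone (grey). The red curve runs above the others and passes 52.1% at 10 kb, against 39.7% and 43.5%.

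The 12 regions with the highest lower score of their 2 peaks had lower scores from 477 to 665, and 10 of them lay between genes. The strongest was at chr1:43259067-43261738, 63.6 kb upstream of Fhl2, which encodes a LIM domain cofactor expressed in striated muscle. It had a score of 665 with 177 tags in myogenic medium and 738 with 201 tags in LSD1(OE) cells. Its densities were 1.64 and 1.66, its summits 40 bp apart, and the nearest wild-type adipogenic peak 2407 bp away. Both libraries thus held a peak of nearly the same height at the same position.

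The region nearest Iscu, a scaffold protein of iron-sulfur cluster assembly, lay 10.8 kb downstream of the TSS at chr5:113781851-113785316. Its scores were 659 (167 tags) and 771 (303 tags), and its densities 1.69 and 1.58. The Foxc1 region, 41.5 kb upstream of this forkhead gene of mesoderm at chr13:31763746-31766517, had scores of 644 (183 tags) and 861 (246 tags), with densities of 1.57 and 1.61. Its summits were 11 bp apart, and the nearest wild-type adipogenic peak was 15336 bp away. These regions had a higher LSD1(OE) than myogenic score, while their densities were close.

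At Mir365-2, a microRNA gene on chromosome 11, the region at chr11:79728376-79731168 had scores of 581 (177 tags) and 631 (202 tags). The region 73.6 kb upstream of Tln2, which encodes a talin that links integrins to actin, had scores of 699 (180 tags) and 556 (185 tags). Other regions of this group were nearest to Sh3tc2, Cops7b, Mir6546, Plekhg5, Irf2bp2, Sgpp2 and Sipa1l2. LSD1(OE) densities exceeded myogenic ones in 4 of the 12 and were lower in 8. The Mir6546 region, at chr1:171077695-171082840, had the most tags of the 12 (521 and 730), with a fold enrichment over the local background of 1.90 and 2.30.

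A few regions had far higher densities than the others. In 7 of them, singled out after their values were seen, the density was over 3, ranging from 3.09 to 15.4 in myogenic medium. The highest was nearest Fam172a, with 15.4 in myogenic medium and 11.6 in LSD1(OE) cells, followed by Pex2 with 9.29 and 8.05 and Igf2bp3 with 4.65 and 4.11. The fold enrichment at the Fam172a region was 1.48 and 1.59, and its score 95.4 and 50.4, whereas the Plekha1 region, with densities of 3.09 and 2.84, had a fold enrichment of 4.40 and 3.85. In all 7 regions the myogenic and LSD1(OE) summits lay within 15 bp of each other. Mappability and copy number at these sites were not tested.

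By the position of their centres, 46.4% (44.9 to 47.9%) of the regions were in introns, 50.1% (48.7 to 51.6%) between genes, 2.18% (1.79 to 2.65%) in other parts of exons, 1.25% (0.959 to 1.62%) in 3′ UTRs and 0.0453% (2 regions) in 5′ UTRs. The share in introns was 47.5% (46.3 to 48.8%) for regions of all 3 libraries and 48.1% (47.4 to 48.9%) for regions with a myogenic peak alone, and the intervals overlapped. The nearest TSS was a median of 22.8 kb away. It lay at 10 to 50 kb for 46.2% of the regions, nearer for 26.1%, and beyond 100 kb for 11.9%. Of the intronic regions, 73.8% lay in the gene of the nearest TSS.

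Base composition was intermediate. In windows of 300 bp at the myogenic summit, the median GC content of the regions was 50%, against 46.3% in windows 2000 bp to the left or to the right, 52.0% in regions of all 3 libraries and 48.0% in those with a myogenic peak alone. Windows of which at least 50% was masked as repeats made up 6.60% (5.90 to 7.37%) at the summit, 17.1% (16.1 to 18.3%) to the left and 17.1% (16.01 to 18.2%) to the right. Promoter regions with the same calls had a median GC content of 63.3% and a ratio of observed to expected CpG of 0.775, against 0.204 for the distal regions.

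An AP-1 motif, TGANTCA on either strand, was present in 27.7% (26.4 to 29.1%) of the summit windows, against 9.27% (8.45 to 10.2%) and 8.46% (7.67 to 9.31%) of the windows to the left and right. Regions with a myogenic peak alone held it in 20.3% (19.7 to 20.9%), regions of all 3 libraries in 30.4% (29.3 to 31.5%), and promoter regions with the same calls in 5.99% (5.12 to 6.98%). All regions with a myogenic peak together held it in 19.2% (18.8 to 19.6%). Within 50 bp of the summit there were 5.64 matches per 100 regions in each 50 bp, and 1.67 beyond 800 bp.

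The E-box CAGCTG, which Myod1 and Myog bind with E proteins, was present in 27.6% (26.3 to 29.0%) of the summit windows, against 16.3% (15.2 to 17.4%) and 14.4% (13.4 to 15.5%) of the windows to the left and right. Its share was 37.3% (36.1 to 38.5%) in regions of all 3 libraries and 25.1% (24.4 to 25.7%) in those with a myogenic peak alone. The E-box CAGGTG, read by Zeb1 and Snai proteins among others, showed no such difference, with 21.2% (20.0 to 22.4%) at the summit and 21.5% and 20.8% to the left and right. Against regions of all 3 libraries, the regions thus held AP-1 slightly less often and CAGCTG clearly less often, and against those with a myogenic peak alone both more often, without overlap of the intervals.

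The shares with AP-1 and with TEAD moved with peak height. AP-1 was present in 24.8% (22.3 to 27.4%) of the 1103 regions with the lowest lower scores and in 31.6% (29.0 to 34.4%) of the 1103 with the highest, and CAGCTG in 24.9% (22.5 to 27.6%) and 29.2% (26.6 to 31.9%), with overlapping intervals. The distal groups were therefore also compared at myogenic scores between 69.6 and 204, the quartiles of the regions, a band chosen after seeing the data. In it AP-1 was present in 28.1% (26.3 to 30.0%) of the regions, in 31.0% (28.9 to 33.1%) of those of all 3 libraries and in 22.5% (21.6 to 23.5%) of those with a myogenic peak alone. For CAGCTG the shares were 28.4% (26.6 to 30.4%), 34.3% (32.1 to 36.5%) and 27.3% (26.3 to 28.3%). Within this band the intervals of the regions and of those with a myogenic peak alone stayed apart for AP-1 and overlapped for CAGCTG. Those of the regions and of all 3 libraries overlapped for AP-1 and stayed apart for CAGCTG. The median scores in the band were not equal, with 120 for the regions, 138 for those of all 3 libraries and 98.96 for those with a myogenic peak alone.

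**Figure D4:**
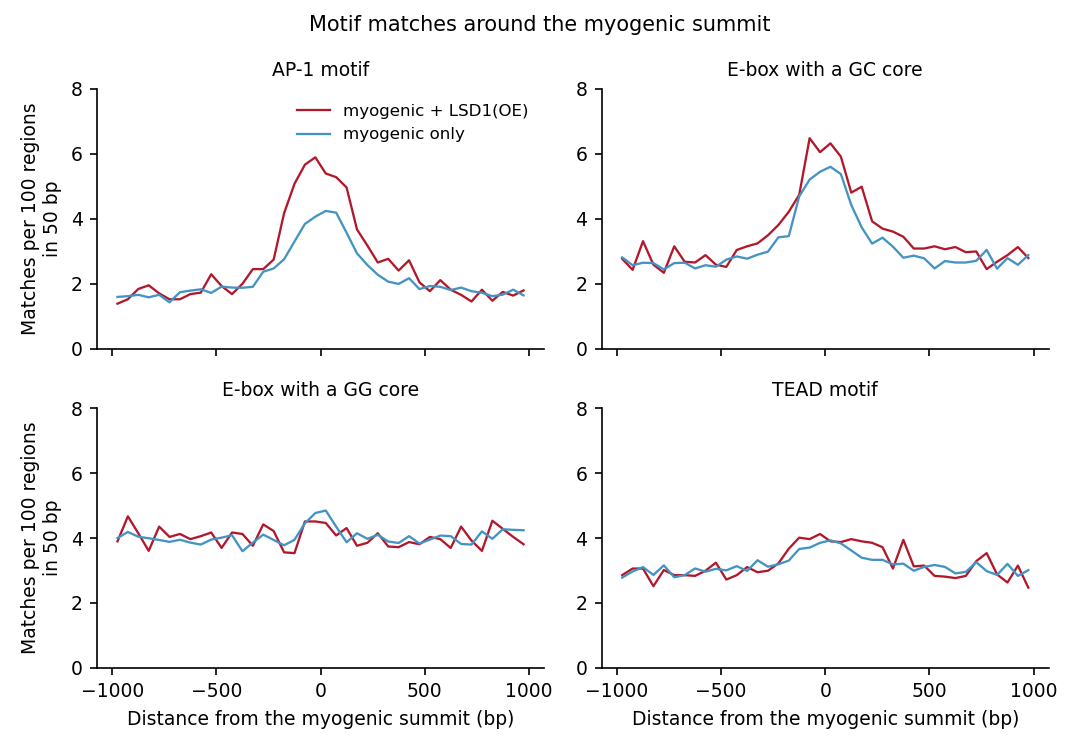
Motif matches per 100 regions in bins of 50 bp (y axis) against the distance from the myogenic summit (x axis, bp), for the 4411 regions (red) and distal regions with a myogenic peak alone (blue), with CAGCTG as the E-box with a GC core and CAGGTG as the E-box with a GG core. AP-1 and the GC-core E-box peak at the summit, AP-1 higher in the red curve (5.64 against 4.15 matches within 50 bp). The GG-core E-box is nearly flat in the red curve (4.49 matches within 50 bp, 4.12 beyond 800 bp). It rises slightly in the blue one (4.81 and 4.12).

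Both motifs occurred together in 335 regions (7.59%), AP-1 without CAGCTG in 888 and CAGCTG without AP-1 in 884, and 2304 regions (52.2%) held neither. Median myogenic scores were 141 with both motifs, 131 with AP-1 only, 117 with CAGCTG only and 114 with neither. LSD1(OE) scores followed less closely, with medians of 115, 106, 108 and 105. Where the summits of the myogenic and LSD1(OE) peaks lay within 100 bp, 32.9% (30.6 to 35.3%) of the windows held AP-1, against 25.1% (23.6 to 26.7%) where they lay farther apart. CAGCTG differed in the same direction, with 30.8% (28.5 to 33.2%) against 26.0% (24.5 to 27.7%).

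Other motifs of muscle factors differed less from the surrounding sequence. The TEAD motif GGAATG was in 20.7% (19.6 to 21.9%) of the summit windows and in 15.9% and 16.01% of those to the left and right, and the RUNX motif TGTGGTT in 11.2% (10.3 to 12.1%), against 8.03% and 7.71%. MEF3 (TCAGGTT) was at 4.47%, 4.49% and 4.53%. The MEF2 motif, rich in A and T, was less frequent at the summit, with 2.95% (2.49 to 3.49%) against 4.22% (3.66 to 4.85%) and 4.33% (3.77 to 4.97%). For C/EBP (TTGCNNAA), a family that acts in early adipogenesis, the shares were 12.3% (11.3 to 13.3%), 10.6% and 10.97%. The palindromic site of the glucocorticoid receptor were in 0.703% of the windows, 0.567% to the left and 0.635% to the right. Whether the GC content of the windows sets these small differences was not tested.

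**Figure D5:**
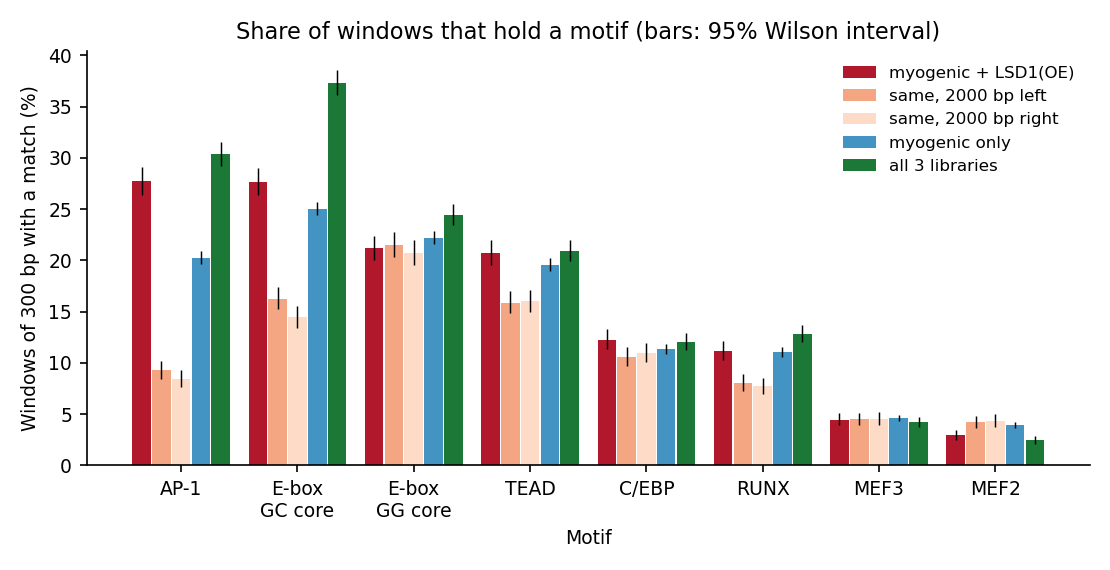
Share of 300 bp windows that hold each motif (y axis, %), at the myogenic summit of the 4411 regions (red), 2000 bp to the left and right of it (light red), and at the summits of distal regions with a myogenic peak alone (blue) or with peaks in all 3 libraries (green), with 95% Wilson intervals as bars. AP-1 shows the widest gap between the summit (27.7%) and its surroundings (9.27% and 8.46%).

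RE1, the element that Rest binds, was rare. Its core was found in 19 summit windows, 0.431% (0.276 to 0.672%), and in 0 of the 8822 windows to the left and right, which allows a share of up to 0.0340%. Regions of all 3 libraries had a like share, 0.443% (0.306 to 0.639%), and regions with a myogenic peak alone a lower one, 0.112% (0.0717 to 0.175%). At myogenic scores between 69.6 and 204 the share was 0.590% (0.345 to 1.01%) in the regions, 0.714% (0.418 to 1.22%) in those of all 3 libraries and 0.124% (0.0654 to 0.236%) in those with a myogenic peak alone. The core lay within 100 bp of the myogenic summit in 16 of the 19. Sequences are shown for 6 of them, on the strand of the element with the core in capitals. They were picked after the motif was found because their nearest genes are active in neurons or their peaks were high. The 6 thus do not show how many of the 19 lie near genes of neurons, which was not counted. Nearest genes of the rest included Slc2a9, Acaa1b, Tpsg1, Zc3h12a, Rab11fip3 and Crhr1.

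Lhx2 region, chr2:38418164-38418192, minus strand: ctagaccCAGCACCCAGGACAGctcccca
C1qa region, chr4:136924718-136924746, plus strand: ctcgaccCAGCACCTTGGACAGcgcagct
L1cam region, chrX:73869504-73869532, minus strand: aggcctcCAGCACCACGGACAGcagaccg
Rims3 region, chr4:120866466-120866494, minus strand: gcatcagCAGCACCAAGGACAGcggccag
Rapgef1 region, chr2:29573765-29573793, plus strand: aggggttCAGCACCACGGACAGcgccatg
Neurod2 region, chr11:98314238-98314266, minus strand: ctggtttCAGCACCACGGACAGagacacc

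The Lhx2 element, 66.8 kb from the TSS of this LIM homeobox gene of the forebrain, had scores of 251 (77 tags) in myogenic medium and 404 (110 tags) in LSD1(OE) cells. L1cam, an adhesion molecule of axons, had an intronic element with scores of 123 (37 tags) and 115 (53 tags), and the nearest wild-type adipogenic peak was 342 kb away. At Rims3, a protein of the presynaptic active zone, the scores were 218 (68 tags) and 72.0 (46 tags), and at Rapgef1, a guanine nucleotide exchange factor, 305 (78 tags) and 65.0 (37 tags). Neurod2, a helix-loop-helix factor of neurons, had low peaks, with 50.8 (28 tags) and 78.5 (45 tags). The C1qa region had scores of 326 (87 tags) and 156 (66 tags). The highest LSD1(OE) score of the 19 was at a region not shown, nearest to 5031425F14Rik. It had scores of 117 (49 tags) in myogenic medium and 733 (274 tags) in LSD1(OE) cells. Over the 19 regions the median difference of LSD1(OE) minus myogenic density was -0.10 on the log2 scale, close to that of all the regions.

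Each region was assigned to the gene of the nearest TSS, which need not be the gene it acts on. Of 26180 annotated genes, 3027 (11.6%) were nearest to at least 1 region, 843 of them to 2 or more. For comparison, 35.9% of genes were nearest to any distal region with a myogenic peak and 13.2% to a distal region of all 3 libraries. Genes with much sequence around them collect more regions, which was not corrected for. The gene lists below are read against these shares, without a test. Where a gene had several regions, the values are those of the one with the highest lower score unless others are named.

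Genes with most regions lay in broad stretches. Macroh2a3 had 13 regions over 676 kb of chromosome 15, from 9.54 to 606 kb from its TSS, and the promoter of this histone variant gene was called in the LSD1(OE) list only. Slc1a3, the glial glutamate transporter, had 9 over 170 kb, and 9430078K24Rik, a noncoding transcript, 9 over 266 kb of chromosome 12. Tns3, which encodes a tensin of focal adhesions, A1bg, A630001O12Rik and F630040K05Rik had 8 each, and Disp1, required for the release of hedgehog proteins, had 7, as did 3 other genes. With gaps of at most 12.5 kb between neighbours, 1126 regions (25.5%) fell into 503 clusters, of which 405 were pairs and the largest held 6. The clusters of 6 spanned 28.8 kb at F630040K05Rik on chromosome 17 and 38.6 kb between Creld2 and Pim3 on chromosome 15.

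Chromosome 15 carried the most regions for its size, 3.29 per Mb, and the X chromosome the fewest, 0.170 per Mb. The other autosomes ranged from 1.22 to 2.88 per Mb. This order was not particular to the regions. Distal regions with a myogenic peak numbered 27.6 per Mb on chromosome 15 and those with a wild-type adipogenic peak 12.6, both above the other autosomes (6.90 to 19.1 and 2.17 to 7.96 per Mb), and as a share of all distal regions of the chromosome the regions made up 8.20% on chromosome 15, the lowest of all. Copy number in this line was not tested.

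Genes of the Hippo pathway and its Tead effectors, which restrain or drive growth programmes in myoblasts, had regions at 11 of 18 (61.1%), with 25 regions, while 72.2% had any distal myogenic region and 33.3% one of all 3 libraries. A region 15.9 kb upstream of Tead1 had scores of 225 (75 tags) and 179 (77 tags) in myogenic medium and LSD1(OE) cells. The intronic region of Tead3 was higher in myogenic medium, with scores of 472 (125 tags) and 146 (71 tags). At Ccn2, a secreted target of the pathway, the strongest of 3 regions lay 148 kb upstream, with densities of 1.73 and 1.12. Lats2, a kinase that inactivates Yap, had an intronic region with densities of 1.23 and 1.42 and an upstream one with densities of 1.76 and 1.04. Regions of one gene could thus differ in opposite directions, as they also did at Ccn2, where a region 3.78 kb upstream had densities of 1.18 and 1.27, and at Tead1, where an intronic one had 0.970 and 1.097.

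Of the myogenic regulatory factors, Myf6 had 1 region, 8.58 kb upstream, with low scores of 77.5 (37 tags) and 51.2 (33 tags), and Myod1, Myf5 and Myog had none. None of the 4 Mef2 genes was nearest to a region, although all 4 were nearest to some distal region with a myogenic peak. At Eya4, a transcriptional cofactor of early myogenesis, an intronic region 172 kb into the gene had scores of 357 (115 tags) and 194 (96 tags). Its density was 1.43 in myogenic medium and 1.02 in LSD1(OE) cells.

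Runx and Nfi genes had regions at 6 of 8 (75.0%), while all 8 were nearest to some distal myogenic region and 62.5% to one of all 3 libraries. An intronic region of Nfix, a factor of fetal myogenesis, had scores of 142 (127 tags) and 163 (67 tags), with a wild-type adipogenic peak 417 bp away. Intronic regions with an AP-1 motif at the summit had scores of 71.7 and 102 at Runx1 and 58.3 and 92.5 at Runx2. A second intronic region of Runx1, without this motif, had 51.2 (30 tags) in myogenic medium and 256 (91 tags) in LSD1(OE) cells. AP-1 genes themselves had regions at 4 of 14 (28.6%), beside 71.4% with any distal myogenic region and 35.7% with one of all 3 libraries. Fos had 1 region 13.2 kb downstream of its TSS, with scores of 232 (92 tags) and 293 (96 tags). A CArG box, the element read by Srf, was at its myogenic summit, and the LSD1(OE) summit lay 1647 bp away. Jun had 4 regions, the strongest with 198 (61 tags) and 195 (66 tags).

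Of 50 sarcomere genes 6 (12%) had a region, close to the 11.6% of all genes, while 58.0% had a distal myogenic region and 36.0% one of all 3 libraries. The regions were at Mybpc1 (scores 114 and 141), Myoz2 (162 and 102), Myom2 (99.2 and 273), Myoz1 (413 and 92.8), Des and Tnnt2. For excitation-contraction coupling the count was 6 of 23 (26.1%), beside 73.9% with any distal myogenic region and 17.4% with one of all 3 libraries. Among them was an intronic region of Jph2, a junctophilin that ties the plasma membrane to the sarcoplasmic reticulum, with scores of 343 (117 tags) and 166 (64 tags). Musk, the receptor kinase of the neuromuscular junction, had a region with 134 (55 tags) and 269 (109 tags). In the dystrophin complex 5 of 21 genes (23.8%) had a region, beside 66.7% and 19.0%. They included Utrn, the homologue of dystrophin, with an intronic region scoring 436 (125 tags) and 171 (73 tags), and Sgca with 157 (61 tags) and 246 (86 tags).

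Adhesion and fusion genes of myoblasts had regions at 7 of 24 (29.2%), beside 75.0% with any distal myogenic region and 25% with one of all 3 libraries. The Ncam1 region, whose sequence is shown above, lay 16.9 kb upstream of this cell adhesion molecule and had scores of 388 (100 tags) and 491 (132 tags) with densities of 1.65 and 1.66. Vcam1, the partner of integrin alpha 4, had scores of 238 (75 tags) and 99.2 (87 tags). Genes of collagens and matrix stood higher, with 17 of 32 (53.1%) and 37 regions, beside 81.3% with any distal myogenic region and 56.3% with one of all 3 libraries. The strongest of these was in an intron of Loxl1, a cross-linker of elastin, with scores of 767 (173 tags) and 401 (144 tags). Col4a1 followed with scores of 361 and 300 and densities of 1.52 and 1.42, then Ltbp1, a binder of latent Tgf-beta, with 256 (84 tags) and 337 (138 tags), and Col6a3 with 396 (100 tags) and 228 (118 tags).

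Adipogenic regulators and adipocyte genes had regions at 7 of 37 (18.9%), against 11.6% of all genes, beside 62.2% with any distal myogenic region and 27.0% with one of all 3 libraries. Pparg, Cebpa, Cebpb, Prdm16 and Ucp1 had none. A region 63.3 kb downstream of the TSS of Tle3, a corepressor that also acts in adipocytes, was the strongest, with scores of 320 (97 tags) and 336 (132 tags), and a wild-type adipogenic peak began 96 bp away. Ebf3 had an intronic region with 656 (158 tags) and 194 (83 tags). Glis1, which encodes a Krüppel-like zinc finger factor, had a promoter peak in all 3 libraries and 3 intronic regions of the set. The strongest lay 61.8 kb from the TSS at chr4:107495836-107497216, with 146 (61 tags) and 135 (74 tags), and the nearest wild-type adipogenic peak was 56244 bp away. The others had scores of 79.0 and 163, and of 196 and 78.1. Genes known to be induced by glucocorticoids, of which dexamethasone was in the adipogenic mixture, had regions at 8 of 20 (40.0%), beside 80.0% with any distal myogenic region and 50% with one of all 3 libraries. They included Foxo3 (scores 448 and 208), Errfi1 (217 and 195), Sgk1 (173 and 211) and Mt2 (186 and 141).

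Lsd1 and its partners were among the genes with regions, at 5 of 21 (23.8%), beside 71.4% with any distal myogenic region and 28.6% with one of all 3 libraries. Gse1, a CoREST-associated protein, had 6 regions, the strongest with scores of 242 (82 tags) and 307 (143 tags), and Zeb1 had 3, the strongest with 177 (64 tags) and 372 (132 tags). Kdm1a, which encodes Lsd1 and was singled out after the values were seen, had 1 region in an intron at chr4:136597988-136599104, 4.18 kb downstream of a TSS, with 167 (59 tags) in myogenic medium and 56.4 (33 tags) in LSD1(OE) cells. Its density was 1.34 in the myogenic and 1.02 in the LSD1(OE) library.

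Among signalling pathways, Tgf-beta and Bmp genes had regions at 16 of 43 (37.2%), Wnt genes at 16 of 49 (32.7%), Igf genes at 7 of 18 (38.9%) and Notch genes at 6 of 22 (27.3%). Shares with any distal myogenic region were 65.1%, 69.4%, 77.8% and 81.8%, and with one of all 3 libraries 30.2%, 28.6%, 44.4% and 45.5%. The Wnt11 region, upstream of a ligand of the noncanonical pathway, had scores of 627 (157 tags) and 302 (107 tags), and the nearest wild-type adipogenic peak was 157422 bp away. Igfbp2, a binding protein of Igf, had a region with 400 (130 tags) and 527 (195 tags), and Jag1, a Notch ligand, one with 244 (73 tags) and 228 (84 tags). Smad6, an inhibitor of Bmp signals, had 335 (89 tags) and 189 (94 tags), and Tgfbr2, a receptor, 171 (65 tags) and 326 (112 tags). Either library could hold the higher score within one pathway.

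The study also listed genes whose RNA moved in opposite directions in LSD1(OE) cells and after knockdown of Lsd1, the inversely regulated genes (IRGs). Of 270 matched IRGs that were higher in LSD1(OE) cells, 92 (34.1%) were nearest to a region, beside 73.0% with any distal myogenic region and 37.4% with one of all 3 libraries. Among 69 that were lower, 14 (20.3%) had a region, beside 60.9% and 27.5%. The study took these lists from genes whose RNA also differed between myogenic and adipogenic medium in wild-type cells. The lists thus share both the LSD1(OE) line and the contrast of media with the rule, and are not independent evidence of a direction. The strongest regions of the first list were at Slc7a5, an amino acid transporter, with scores of 463 (113 tags) and 573 (136 tags), at Rere with 273 (91 tags) and 308 (133 tags), and at Nr1d1, a nuclear receptor of the circadian clock, with 513 (149 tags) and 268 (177 tags). A wild-type adipogenic peak lay 12 bp from the Nr1d1 region. In the second list they were at Vgf with 202 (63 tags) and 176 (69 tags), and at P4ha2 with 272 (91 tags) and 163 (68 tags), and Glis1, described above, was also in it.

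Most nearest genes had other calls at the promoter than at the distal region. Of the 3027 genes, 1272 (42.0%) had a promoter peak in all 3 libraries, 400 (13.2%) in the myogenic and LSD1(OE) libraries but not in the wild-type adipogenic one, and 881 (29.1%) in none. Over all 26180 genes the shares were 23.5%, 10.8% and 49.7%. Genes nearest to distal regions of all 3 libraries had 44.9%, 13.2% and 25.2%, and those nearest to regions with a myogenic peak alone 36.5%, 12.5% and 33.7%. Tead1 was among the genes with the same calls at the promoter and at a distal region, whereas Ncam1, Loxl1 and Tle3 had a promoter peak in all 3 libraries.

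At the edges of the rule, a few bp decided whether a region was kept. Centres just inside the TSS limit were 2007 bp from Jak2, with 71 and 68 tags, and 2011 bp from Pla2g15, with 29 and 122 tags, and 2 regions near Lin28a and Popdc3 fell just outside at 1999.5 bp. The smallest gaps to a wild-type adipogenic peak were 2 bp near Gna11 and 4 bp near Cuedc1, while a region near Lnx1 was left out for an overlap of 2 bp. The lowest score inside was 50.02, shared by regions near Plekha2 and Sohlh2.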

How the data were processed

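Lsd1 ChIP-seq libraries of C2C12 cells (1 ChIP and 1 input for each of 3 conditions) were grouped by the sample labels. The authors mapped the reads to mm10 with Bowtie2 and called peaks in each ChIP library separately, with the matching input as control. The submitters' notes give MACS 1.41 and the file headers MACS 1.4.2, with a p cut-off of 1e-05. Per the file headers, filtered ChIP tags numbered 46155625 to 63915769 and filtered input tags 81567427 to 100711088. For each peak the deposited lists hold a tag count without normalization, a score (−log10 of p, times 10), a fold enrichment over the local background, which is not on one scale between libraries, and an FDR in percent. The labels give 3 days of induction medium and the study's methods 2, which does not touch cells of day 1.

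Peaks were merged and classified in Python 3.11.15 (pandas 2.3.3, NumPy 2.4.6, SciPy 1.17.1), with 31647 TSSs of 26180 genes from curated RefSeq transcripts of GRCm38.p6, the patch release of mm10. For a region with several peaks of one list the highest was used. Sequence was read from the same assembly with pysam 0.24.0, and 13 motifs were searched on both strands in 300 bp at the summit, exact letters only. Shares have 95% Wilson intervals, and no test was run, since no condition has a replicate. Members and gene lists were chosen with earlier results of these data known. Genes were named by a rule: the 12 regions with the highest lower score, the 8 genes nearest to most regions (ties by score), and up to 4 genes of each list. All names of the fixed lists matched a RefSeq symbol. IRG names were read from the extracted text of the study's supplement, and 270 and 69 genes matched. Merging, TSS assignment and motif search were tested on simulated data. Reads were not analysed here, and the result of 1 gene list is not reported here.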

Additional observations from a re-analysis of the deposited data

How the results depend on the processing

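The number of regions depended on the stringency of the lists. It was 2537 with a score of at least 100, 2354 with an FDR of at most 0.1% and 1084 with the 18893 strongest peaks of each list, and 1952 when scores were taken without the scaling of ChIP tags. Of the 4411 regions, 1485, 1171, 1083 and 1680 were found again. A stricter limit also removes wild-type adipogenic peaks, and regions not among the 4411 then enter. The 6 other alternatives gave 3861 to 4621.

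The share in introns was 48.3% with a score of at least 100 and 48.4% with divided scores. In the order of the first 4 settings above, CAGCTG was present in 30.7%, 31.0%, 30.1% and 30.7% of the regions and AP-1 in 30.9%, 31.9%, 31.6% and 29.9%, and in 200 bp windows in 20.7% and 19.6%, as fewer letters were searched. The median log2 density difference was -0.14 with a score of at least 100, -0.19 with equal numbers and -0.14 with divided scores. Under every other alternative run, the shares stayed within the 95% interval of the value reported and the median at -0.11. No paired analysis was possible because each group has 1 sample and no test was run. The smallest tag counts called (27, 35 and 30) limit what each library could show, and signal below a called peak cannot be seen in a list.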

Other observations

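Neighbouring regions also gathered at loci outside the lists. In a stretch of 16.3 kb on chromosome 13 from 23727411 to 23743714, nearest to the replication-dependent histone genes H1f2 and H3c3, 4 regions lay more than 2000 bp from every TSS. Other clusters of 4 regions were at Sardh (14.2 kb), at Lrrfip1, at Atxn7l1, between Dlx3 and Itga3 (18.7 kb), and between A330009N23Rik and Nr4a1, an orphan nuclear receptor (20.2 kb). These were picked after the clusters had been ranked by size and span, and no test was run on them.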
